A study of Mus musculus with 4 samples.

Results

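The let-7 family was followed on miRNA arrays of mouse small intestine through its 9 members of the 5p arm: mmu-let-7a-5p, mmu-let-7b-5p, mmu-let-7c-5p, mmu-let-7d-5p, mmu-let-7e-5p, mmu-let-7f-5p, mmu-let-7g-5p, mmu-let-7i-5p and mmu-miR-98-5p, written below without the prefix for mouse. The members were taken by probe name, and 9 of the 1900 miRNA probes on the array carried such a name. Total RNA came from organoids grown from small intestinal crypts and collected on day 1 of culture, from such organoids on day 5, from villus epithelial cells and from crypt epithelial cells. The labels give neither strain, age nor sex of the animals, nor the culture medium. Each group had 1 array and each miRNA 1 spot, so no p-value was computed and every difference below describes these 4 arrays only. Organoids are cultures of crypt cells that form a closed epithelium without muscle or connective tissue.

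As background, let-7 miRNAs bind messenger RNAs through their seed, bases 2 to 8, and repress genes of growth and of the undifferentiated state, among them Hmga2, Ras genes and Lin28 genes. The LIN28 proteins in turn block the maturation of let-7 precursors, so that let-7 is low in embryonic and high in differentiated cells. In mouse intestine, excess Lin28b and loss of let-7 are known to promote tumours, and villus cells are the differentiated descendants of the dividing crypt cells.

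The mature sequences are shown because the members are near-identical and a probe for one can bind another. All 9 members were found in RefSeq's mouse annotation (GRCm38.p6). Each had 22 bases, with the seed in capitals.
let-7a-5p: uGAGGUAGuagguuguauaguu
let-7b-5p: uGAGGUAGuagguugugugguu
let-7c-5p: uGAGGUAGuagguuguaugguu
let-7d-5p: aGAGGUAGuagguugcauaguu
let-7e-5p: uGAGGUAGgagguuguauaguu
let-7f-5p: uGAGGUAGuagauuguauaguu
let-7g-5p: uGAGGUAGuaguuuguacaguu
let-7i-5p: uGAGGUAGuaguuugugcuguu
miR-98-5p: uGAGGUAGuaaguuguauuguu

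All 9 carry the same seed, so they differ only outside it. Counting positions from 1 at the 5′ end and giving the base of let-7a-5p first, let-7c-5p differs from let-7a-5p by A19G alone, let-7e-5p by U9G alone and let-7f-5p by G12A alone. let-7b-5p differs from let-7c-5p at a single position as well. Over the 36 pairs of members the number of mismatches ran from 1 to 6, the most being between let-7d-5p and let-7i-5p. The table held 11 mature miRNAs with this seed, and all 11 had a probe; besides the members these were let-7k and miR-1961. They are shown with let-7j, whose last seed base differs.
let-7k: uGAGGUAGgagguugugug
miR-1961: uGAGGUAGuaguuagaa
let-7j: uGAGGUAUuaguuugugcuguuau

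The hairpins lie on several chromosomes (GRCm38.p6), so several probes sum the output of more than 1 gene. On the minus strand of chromosome 13, Mirlet7d (chr13:48536012-48536114), Mirlet7f-1 (chr13:48537829-48537917) and Mirlet7a-1 (chr13:48538179-48538272) are neighbours, and no other gene of the annotation spans them. Mirlet7c-2 (chr15:85706603-85706697) and Mirlet7b (chr15:85707319-85707403) lie within the long non-coding RNA gene Lncppara, and Mirlet7a-2 (chr9:41536716-41536811) within Mir100hg, another such gene. Mirlet7f-2 (chrX:151912346-151912428) and Mir98 (chrX:151913214-151913321) lie within Huwe1, Mirlet7g (chr9:106178840-106178927) within Wdr82, and Mirlet7e (chr17:17830352-17830444) within Spaca6. Mirlet7i (chr10:122985640-122985724) and Mirlet7c-1 (chr16:77599657-77599750) were spanned by no other gene. Whether a hairpin is in an exon or an intron was not examined.

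All 9 members were detected on all 4 arrays, where a probe counts as detected if its spot exceeds the blank spots' mean by more than 2 of their SDs. mmu-let-7f-5p was 523 above the blank spots on the day 1 organoid array, 412 on the day 5 organoid array, 3352 on the villus array and 664 on the crypt array. mmu-let-7a-5p had 571, 397, 3221 and 577 in the same order. mmu-miR-98-5p, the dimmest member, was 43.5 above the blank spots on the day 1, 34.0 on the day 5, 178 on the villus and 38.5 on the crypt array. As scanned, every member was thus brightest on the villus array and dimmest on the day 5 array. These intensities are not comparable between arrays as they stand, because Spike Control spots were 16422 above blank on the day 1, 8578 on the day 5, 28361 on the villus and 8540 on the crypt array. The name of the deposited table for day 5 carries another code than the one shared by the other 3 arrays. Neither the labels nor the headers say what the code stands for, so whether the day 5 array was on another slide or in another run is not known here, and such a difference cannot be told apart from culture day.

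Levels below are log2 intensities after normexp background correction and quantile normalization, which gives the 4 arrays the same distribution. let-7f-5p had a level of 8.72 on the day 1 organoid array, 9.34 on the day 5 organoid array, 10.45 on the villus array and 11.18 on the crypt array. let-7a-5p had 8.80, 9.26, 10.32 and 11.06 in the same order, and let-7c-5p had 8.76, 9.04, 10.05 and 10.72. These members, the brightest, shared 1 order of arrays: day 1 lowest, then day 5, villus and crypt. let-7d-5p had levels of 8.70, 9.03, 9.98 and 10.70 on the day 1, day 5, villus and crypt arrays, and let-7b-5p had 8.47, 8.72, 9.95 and 10.25. let-7g-5p had 8.08, 8.50, 9.52 and 10.23, and let-7i-5p 7.53, 8.14, 8.79 and 9.37. The same order held for these members too. In let-7e-5p, with 7.11, 7.54, 8.61 and 8.64, the villus and crypt levels differed by only 0.03, which is less than the spread between spots of control probes. miR-98-5p had 6.45, 6.83, 7.06 and 7.58.

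**Figure D1:**
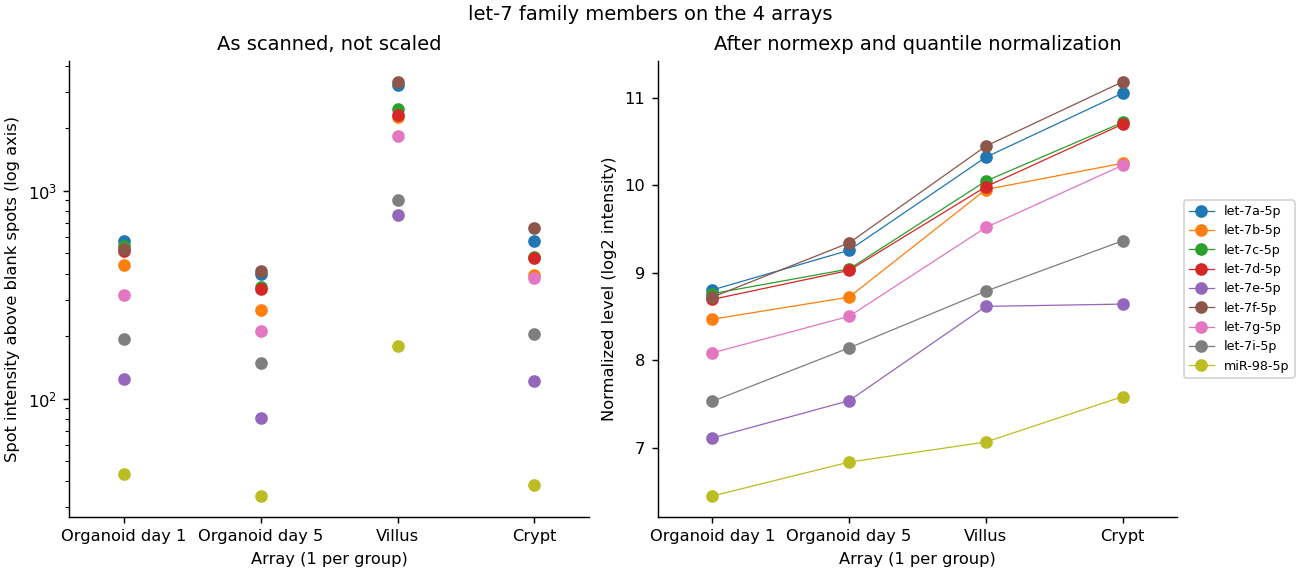
Intensity above the blank spots (left, log axis) and normalized log2 level (right) of the 9 let-7 members on the day 1 organoid, day 5 organoid, villus and crypt arrays. Points are single spots, and thin lines on the right join the same probe; every member was brightest on the villus array as scanned, and had its lowest normalized level on the day 1 array.

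The spread available for judging these differences is that between spots of 1 array. Among 5 control probes spotted 8 times on each array and over 100 above blank, the SD of log2 intensity between spots was 0.052 to 0.143, and a difference between 2 single spots would have an SD of 0.144. A control probe dimmer than any member on every array, S-Probe1, had an SD of 0.225 on the villus, 0.151 on the day 1, 0.163 on the day 5 and 0.170 on the crypt array. This spread covers neither animals, cultures nor labelling.

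let-7 was lower in day 1 organoids than in crypts, the tissue the cultures were started from. All 9 members were at least 2-fold lower, between 5.52-fold for let-7f-5p (log2 difference -2.46) and 2.20-fold for miR-98-5p (-1.14), with a family median of -1.96. let-7a-5p was 4.77-fold and let-7g-5p 4.43-fold lower. Of 1597 miRNAs detected on either array, 6.2% were at least 2-fold lower and 5.2% higher. Of the 338 whose mean level was at or above that of miR-98-5p, 26.6% were lower and 23.4% higher. The median over all miRNAs was 0.00. let-7f-5p ranked 5 from the lowest of the 1597 and miR-98-5p 85.

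The size of this difference, and its sign in 1 setting, depended on how the arrays were scaled. As scanned, let-7a-5p had nearly the same intensity above blank on the day 1 and crypt arrays. The family median was -0.91 when each array was scaled to its Spike Controls and -0.40 when scaled to its median. When scaled to 8 miRNAs of intestinal epithelium (miR-192, miR-194, miR-215 and the miR-200 family) it was 0.25. The epithelial miRNAs were themselves lower on the day 1 array after quantile normalization, so let-7 was lower relative to all miRNAs but not relative to these.

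In day 5 organoids let-7 was again lower than in crypts. At least 2-fold lower were 8 of 9 members, against 5.12% of 1464 miRNAs and 21.3% of the 338 brighter ones, and the family median was -1.67. No member was higher, against 4.37% of the 1464 and 18.3% of the 338 at 2-fold. let-7f-5p was 3.59-fold, let-7a-5p 3.48-fold and let-7g-5p 3.31-fold lower. let-7e-5p, 2.15-fold lower, lay just past 2-fold, and miR-98-5p at 1.68-fold lower lay inside it. miR-98-5p was 34.0 above blank on the day 5 and 38.5 on the crypt array, where the offset makes fold changes too small. The family median was -0.55 with Spike Control scaling, -0.52 with scaling to the median, 0.23 with scaling to the epithelial miRNAs and -0.15 with the deposited background column subtracted. In the deposited processed values it was -1.37. Both organoid comparisons use the same crypt array, so they are not independent of each other.

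**Figure D2:**
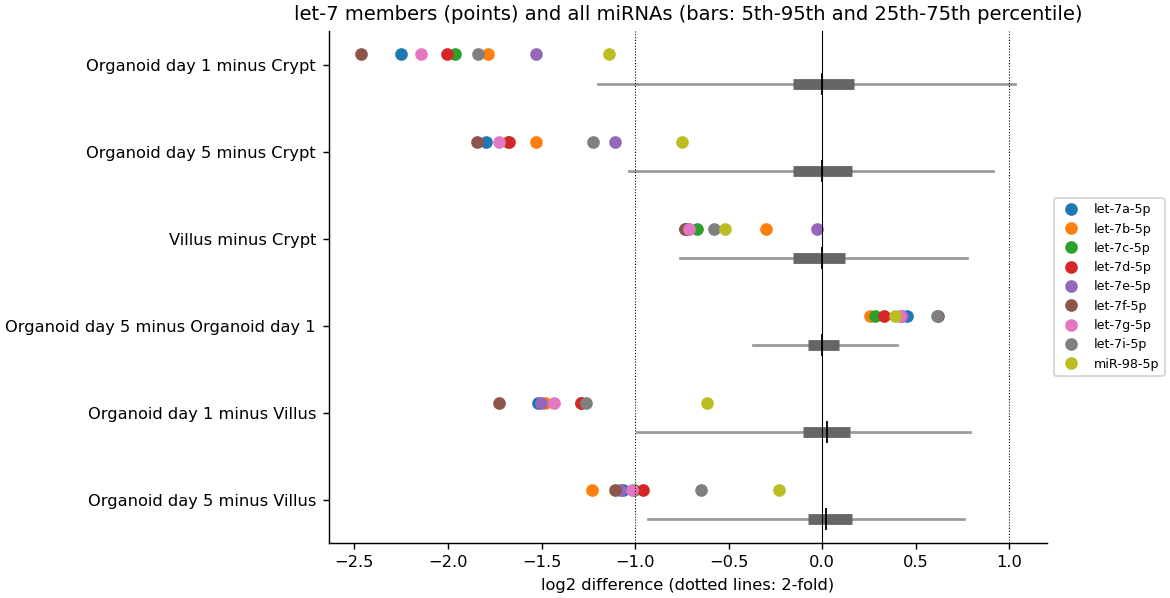
log2 differences between arrays for the 9 let-7 members (points) and for all detected miRNAs (thin bar from the 5th to the 95th percentile, thick bar from the 25th to the 75th, tick at the median) in 6 comparisons, with dotted lines at 2-fold. Between day 1 organoids and crypt, all 9 members lie left of the line for 2-fold lower, whereas between villus and crypt none does.

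let-7 was also lower on the organoid arrays than on the villus array. On day 1, 8 of 9 members were at least 2-fold lower than on the villus array, against 5.02% of 1632 miRNAs and 17.8% of the 338 brighter ones, with a family median of -1.44. At 2-fold higher were 0 members, 3.37% of the 1632 and 15.1% of the 338. let-7f-5p was 3.31-fold and let-7a-5p 2.87-fold lower, and miR-98-5p was 1.54-fold lower. On day 5, 6 of 9 were at least 2-fold lower, against 4.61% of 1539 miRNAs and 14.8% of the brighter ones, with a family median of -1.02. At 2-fold higher were 0 members, 2.79% of the 1539 and 11.8% of the 338. let-7c-5p (2.01-fold) and let-7g-5p (2.02-fold) lay just past 2-fold, and let-7d-5p (1.94-fold) just inside it. The family median was below 0 under all 9 other ways of processing, between -0.54 and -1.90 on day 1 and between -0.64 and -2.02 on day 5. These were the only comparisons of the 6 in which the sign was the same in all 9. The number of members at least 2-fold lower was 0 on both days with scaling to the epithelial miRNAs, and 0 on day 5 with the background column subtracted.

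miRNAs of other tissues had their highest summed levels on the villus array. Of 7 probes for smooth muscle and fibroblast miRNAs, 6 were detected on the day 1 array, 4 on the day 5, 7 on the villus and 6 on the crypt array, and their summed normalized intensity was 481, 497, 8480 and 767 in the same order. Above blank, without normalization, they summed to 128, 52.1, 24070 and 105. After normalization the 5 leukocyte probes summed to 321, 336, 916 and 387, and the 2 endothelial probes to 122, 120, 359 and 138. The 2 red blood cell probes summed to 132, 141, 948 and 164. Above blank, without normalization, the leukocyte probes summed to 55.7, 23.8, 1612 and 28.3 and the endothelial probes to 12.8, 2.40, 665 and 6.92. For the red blood cell probes these sums were 28.5, 14.3, 2132 and 12.6. The normalized sums hold the offset for every probe, so they make differences in dim probes too small. The 8 epithelial probes were detected on every array and after normalization summed to 9086, 13690, 24150 and 47100. Their sums above blank, without normalization, were 14050, 8993, 62630 and 17550, so these too were highest on the villus array. let-7 is made in many cell types, and the part of these other cells in the villus values was not tested. In bulk RNA, fewer cells that express a miRNA and less of it per cell cannot be told apart.

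Between villus and crypt, the direction for let-7 was not settled by these arrays. After quantile normalization no member differed by 2-fold, against 3.33% of 1563 miRNAs that were lower by that much and 3.9% that were higher. Among the 338 brighter miRNAs these shares were 14.5% and 12.7%. The family median was -0.67, with let-7f-5p and let-7a-5p at -0.74 and -0.73, let-7b-5p at -0.30 and let-7e-5p at -0.03. With scaling to the median the family median was 1.51, and 8 of 9 members exceeded their crypt level by 2-fold or more. Above blank and without scaling between arrays it was 2.34. The deposited values also have the same median, 25, on the villus and crypt arrays. They gave a family median of -0.36, with 0 members at least 2-fold higher, so an equal median did not by itself fix the sign. The family median was 0.89 when the 75th percentile was used, 0.61 for the Spike Controls, 0.72 for the epithelial miRNAs and 0.49 after subtraction of the background column. Below 0, beside quantile normalization, lay cyclic loess (-0.43), the deposited values (-0.36), quantile normalization after subtraction of the blank mean (-0.76) and after normexp with an offset of 16 (-0.69).

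Between days 1 and 5 of culture no member differed by 2-fold. The family median of day 5 minus day 1 was 0.42, with let-7f-5p at 0.62, let-7i-5p at 0.61 and let-7b-5p at 0.25. Among 1568 miRNAs, 0.319% passed 2-fold upward and 0.893% downward, and among the 338 brighter ones 1.48% and 4.14%. All 9 members lay above 0, but with scaling to the median the family median was -0.11 and with the epithelial miRNAs -0.04. In the deposited processed values it was 0.55.

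**Figure D3:**
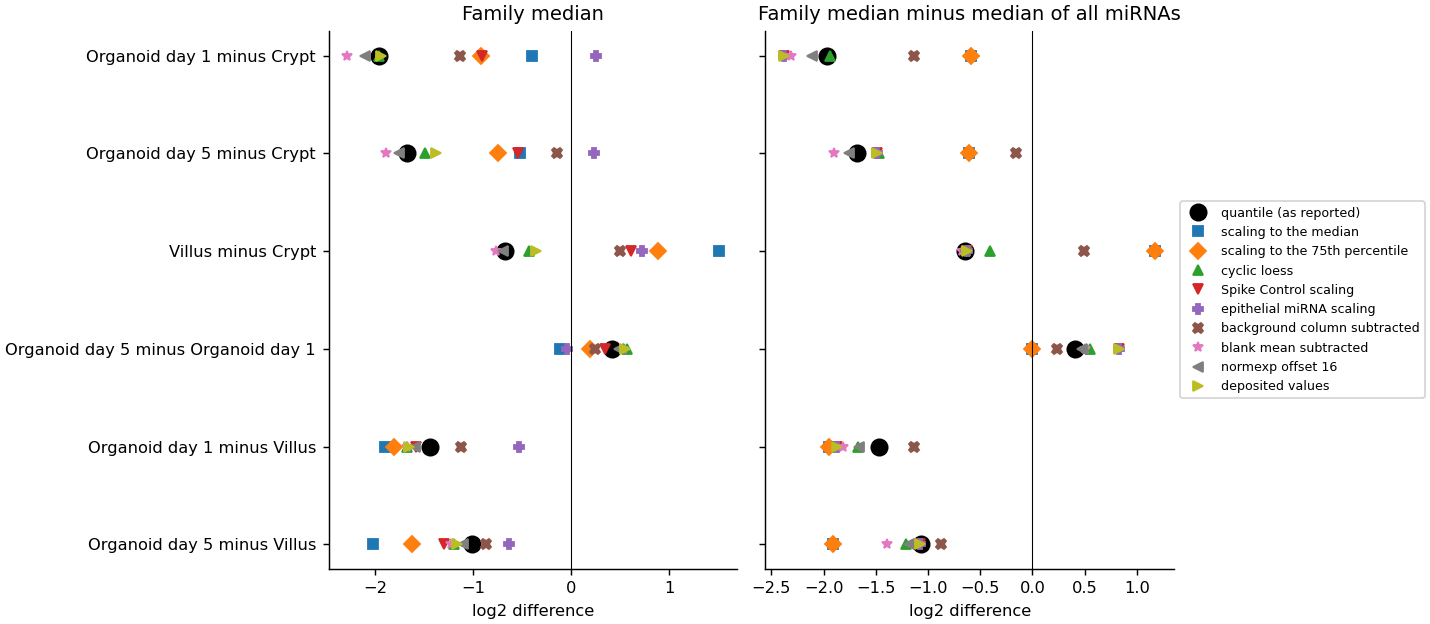
Family median of the log2 difference under 10 ways of processing, as computed (left) and after subtraction of the median of all miRNAs detected on both arrays (right). The points for organoids against villus all lie below 0, those for villus against crypt fall on both sides, and those for organoids against crypt lie below 0 except with scaling to the epithelial miRNAs on the left.

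How the members differ among themselves can be read without any scaling between arrays, as each member's log2 ratio of intensity above blank minus the median ratio of the 9. A value of 0 means a change like that of the family. Between day 1 organoids and crypt, let-7f-5p was -0.37 and let-7g-5p -0.29 from the family, while the other 7 lay between -0.12 and 0.15. let-7g-5p was likewise -0.31 from the family between day 5 organoids and crypt, where let-7f-5p was -0.15 and miR-98-5p 0.36. Both let-7g-5p values exceed the 0.144 between control spots, but they share the crypt spot of that probe. Between villus and crypt, let-7e-5p stood highest at 0.32, let-7b-5p had 0.20 and let-7i-5p -0.19. miR-98-5p was 0.63 from the family between day 5 organoids and villus and let-7i-5p 0.41, the widest spread of the 6 comparisons. The SD of these values over members ran from 0.140 between the organoid arrays to 0.273 between day 5 organoids and villus. miR-98-5p had under 50 intensity units above blank on 3 arrays, so its ratios are the least certain.

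**Figure D4:**
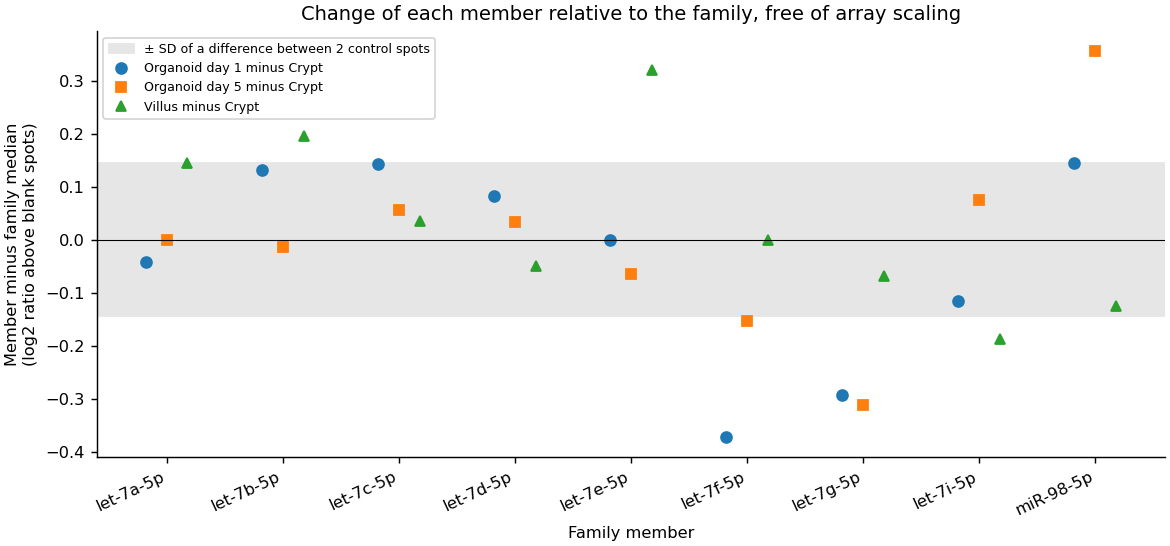
log2 ratio of intensity above blank for each let-7 member minus the family median, for day 1 organoids, day 5 organoids and villus, each against crypt. The grey band reaches 1 SD of a difference between 2 control spots (0.144) to either side of 0. For day 1 organoids, let-7f-5p, let-7g-5p and, just above, miR-98-5p lie outside it. For day 5 organoids let-7f-5p, let-7g-5p and miR-98-5p do, and for villus let-7a-5p, let-7b-5p, let-7e-5p and let-7i-5p. Some points would lie outside 1 SD from the spread between spots alone, and the control spots used were brighter than miR-98-5p on every array.

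Members that differ by few bases had similar profiles over the arrays, but so did some that differ by more. The distance between 2 members was taken as the root mean square difference of their centred log2 intensities above blank over the 4 arrays. The 4 pairs with 1 mismatch had distances of 0.086 to 0.117 (median 0.097). The 10 pairs with 2 mismatches had a median of 0.160, the 11 pairs with 3 had 0.189, and the 11 pairs with 4 or more had 0.153. A difference between 2 single control spots would have an SD of 0.144, so distances near that size can arise between spots alone. Whether the distance follows the number of mismatches was not tested. The smallest distance, 0.033, was between let-7c-5p and let-7d-5p, which have 3 mismatches, and the next, 0.074, between let-7a-5p and let-7b-5p, which have 2. Both of these pairs occupied neighbouring spots of a block. Other neighbours were let-7c-5p and let-7e-5p, at a distance of 0.170, and let-7g-5p and let-7i-5p, at 0.191. The part that binding to near-identical probes has in these profiles was not tested.

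Among the related probes, let-7k, whose 19 bases share the seed, had a level of 6.50 on the day 1 organoid, 6.61 on the day 5 organoid, 7.16 on the villus and 7.31 on the crypt array. let-7j had 6.32, 6.54, 6.87 and 7.30 in the same order. Their arrays stood in the order seen for the family, and the differences between day 1 organoids and crypt were -0.81 for let-7k and -0.98 for let-7j. miR-1961, which has only 17 bases, was detected on no array. miR-202-3p, which shares bases 2 to 7 with the family and is known from gonads, was detected on the villus array only.

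The 3p arms, cut from the other side of the hairpins, were detected less widely. Of 11 probes for 3p arms, 9 were detected on the day 1 organoid, 6 on the day 5 organoid, 6 on the villus and 5 on the crypt array, and 4 on all. After normalization none differed by 2-fold between any 2 arrays. Between day 1 organoids and crypt, 6.2% of 1597 detected miRNAs were lower and 5.2% higher by that much. let-7b-3p had levels of 6.44, 6.36, 6.37 and 6.28 on the day 1, day 5, villus and crypt arrays, and let-7f-1-3p 6.36, 6.28, 6.19 and 6.42. The order of arrays seen for the 5p arms was not present in the normalized levels of let-7b-3p. At these levels the offset of the background correction compresses any difference. Above blank, let-7b-3p had 43.0 on the day 1, 13.5 on the day 5, 59.7 on the villus and 5.91 on the crypt array. let-7f-1-3p had 36.3, 10.6, 36.6 and 7.96 in the same order. A lack of change in the 3p arms therefore cannot be read from their normalized levels.

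Mirlet7a-2, Mirlet7c-1 and Mirlet7e are neighbours of miR-100, miR-99a, miR-125b, miR-99b and miR-125a genes in the genome. On the villus array, miR-125b-5p was 3.38-fold higher than on the crypt array (log2 difference 1.76), and miR-100-5p, detected there and not on the crypt array, at least 2.14-fold higher. miR-99b-5p had 0.48 and miR-125a-5p 0.55, and miR-99a-5p was at least 1.75-fold higher, whereas let-7a-5p, let-7c-5p and let-7e-5p had -0.73, -0.67 and -0.03. The partners were dim on the crypt array, so the offset makes these differences too small. Above blank, miR-125b-5p was 613 on the villus and 7.29 on the crypt array. Between day 1 organoids and crypt, miR-125b-5p had -0.21 and miR-125a-5p -0.72. Above blank and without scaling between arrays, their log2 ratios had the other sign, at 1.57 and 0.58, against a let-7 median of 0.03. Against villus the 5 partners were lower in organoids, as let-7 was, with a median of -1.19 on day 1 and -1.13 on day 5, bounds included. At least 2-fold lower were 3 of 5 on each day. Among all miRNAs detected on either array this share was 5.02% on day 1 and 4.61% on day 5. Among the 338 brighter ones it was 17.8% and 14.8%. miR-125b, miR-99a and miR-100 are abundant in fibroblasts and muscle, whose miRNAs were higher on the villus array as given above, and their part in these values was not tested.

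The miR-30 and miR-29 families, which are also abundant in differentiated tissues, were near to let-7 in their normalized levels. Between day 1 organoids and crypt their medians were -1.72 for 5 miR-30 probes and -1.98 for 3 miR-29 probes, against -1.96 for let-7. Between villus and crypt they were -0.23 and -0.31, against -0.67. Among 920 other miRNAs detected on all arrays and brighter than the median, the 8 whose centred level profile lay nearest to the family median were miR-30e-5p, miR-29c-3p, miR-29a-3p, miR-378a-3p, miR-15a-5p, miR-30a-5p, miR-26b-5p and miR-30c-5p, at root mean square distances of 0.052 to 0.140 over 4 arrays. The median distance of the 920 was 0.804, and the members themselves lay within 0.422. In a ranking on intensities above blank, which was added after values had been seen, miR-140-3p was nearest at 0.087 and miR-30d-5p next at 0.090. miR-15a-5p ranked 6 and miR-378a-3p 8 there, while the other 6 ranked from 10 (miR-30a-5p) to 48 (miR-29c-3p). Relative to miR-30 on that scale, let-7 was 0.25 higher on day 1 and 0.30 higher on day 5, each against crypt, and 0.21 lower in villus against crypt.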

How the data were processed

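Cy5-labelled total RNA of 4 samples was hybridised to 1 array each. Per the file headers, the authors deposited the median intensity of each of 3200 spots as linear values merged from several scan gains, with a column named as background median. The scanner is not named in the sources used here. The deposited table of processed intensity values is a straight-line function of these spot medians with its zero at the blank spots. Its median over the miRNA probes is 25 on each array. Normexp (limma 3.58.1, R 4.3.3) with an offset of 50 was run on the spot intensity alone, because the background column followed the brightness of its own spot, a choice made with values known; then log2 and quantile normalization over the miRNA probes. 3 probes with quality marks were left out, which leaves 1897. The offset makes fold changes of dim probes too small. Blank statistics leave out 5% of the spots at each end. A miRNA detected on 1 array only gives a bound against the lowest detected level of the other. The calculation was tested on a rescaled copy of the villus array with known changes put in. As many probes were raised as lowered, so that test does not bear on the choice of scaling. The members and lists were chosen with earlier results of these data known. Named were all members, the other miRNAs with the seed, the 3p arms, the cluster partners, the miR-30 and miR-29 families, marker lists and the 8 nearest profiles. Precision is limited by 1 array per group. Alternatives changed the scaling, the background step, the offset and the detection limit.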

Additional observations from a re-analysis of the deposited data

How the results depend on the processing

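No paired analysis was possible because each group had 1 array, and no replicate could be left out for the same reason. A setting was taken to move a value when it changed it by over 1.5-fold or changed its sign. The family median between day 1 organoids and crypt was -0.40 when arrays were scaled to their medians, -0.92 for the 75th percentile, -0.91 for Spike Control, 0.25 for the epithelial miRNAs and -1.14 after subtraction of the background column, where 0, 3, 3, 0 and 5 members were at least 2-fold lower. Between day 5 organoids and crypt the same settings gave -0.52, -0.75, -0.55, 0.23 and -0.15, with 0, 1, 0, 0 and 2 members. Between villus and crypt they gave 1.51, 0.89, 0.61, 0.72 and 0.49, and with the background column subtracted 2 members were at least 2-fold lower and 4 higher. Day 5 minus day 1 gave -0.11 for median scaling and -0.039 for the epithelial miRNAs, and 2 members were lower with the background column subtracted. Day 1 organoids against villus had -0.54 with the epithelial miRNAs, with 0 members. Day 5 organoids against villus had -2.02 for median and -1.62 for 75th-percentile scaling, and 0 members with the epithelial miRNAs or with the background column subtracted. Cyclic loess, the deposited values, blank subtraction, an offset of 16 and, for the counts, a detection limit of 3 SD moved none of these medians and counts.

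Among single differences of at least 2-fold, scaling to the epithelial miRNAs turned these positive: between day 1 organoids and crypt let-7a-5p 0.21, let-7b-5p 0.38, let-7c-5p 0.40, let-7d-5p 0.33, let-7e-5p 0.25, let-7i-5p 0.14 and miR-98-5p 0.40, and between day 5 organoids and crypt let-7a-5p 0.23, let-7b-5p 0.22, let-7c-5p 0.29, let-7d-5p 0.27, let-7e-5p 0.17, let-7f-5p 0.082 and let-7i-5p 0.31. Subtracting the background column did so on day 1 for let-7a-5p 1.20, let-7b-5p 1.62 and let-7f-5p 1.25 against crypt and let-7g-5p 1.69 and let-7i-5p 1.26 against villus, and on day 5 against crypt for let-7a-5p 1.44, let-7b-5p 1.74, let-7c-5p 0.39 and let-7f-5p 2.81. For let-7a-5p the share of the spot that was subtracted was 28.5% on the day 1 and 95.6% on the crypt array, and for let-7i-5p 48.1% on the day 1 and 132% on the villus array. Of 486 values of single members under alternatives, 82 had the other sign, 23 of them from a difference of at least 2-fold, and 43 of the 82 were between villus and crypt, where scaling to the median, the 75th percentile, Spike Control or the epithelial miRNAs turned all 9 members positive. miR-98-5p, under 2-fold between day 5 organoids and crypt, was 0.59 there with the epithelial miRNAs. Signal over background limits miR-98-5p most.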

Other observations

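The column named as background took like shares of the spot for members printed in the same block of the array, and the shares changed between arrays. For let-7a-5p and let-7b-5p, neighbours in block 28, it was 28.5% and 33.5% of the spot on the day 1 organoid array, 38.8% and 45.2% on the day 5 and 95.6% and 98.4% on the crypt array. For let-7g-5p and let-7i-5p in block 8 it was 43.2% and 48.1% on the day 1, 102.8% and 107.5% on the day 5, 118.1% and 132% on the villus and 35.9% and 41.4% on the crypt array. Over all miRNA probes more than 100 above blank, the block accounted for 46.4% of the variance of the log2 ratio of background to spot on the day 1 array, 55.7% on the day 5, 58.8% on the villus and 49.7% on the crypt array, after adjustment for the number of blocks.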
